A study of Mus musculus with 4 samples.

Results

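Icam1, Aoc3, Gdf10, F3, Clec11a and Apoe are genes used to mark the committed and regulatory cells of the adipose stroma. They were chosen by name as markers of these populations, and all 6 were found among the 20207 genes listed for each library. Transcript levels were measured by RNA sequencing of adipocyte precursor cells, stromal progenitors of the fat cell lineage. Cells were freshly isolated from adipose tissue and sorted by flow cytometry on the surface profile Sca1+ CD45- CD31-. The gate keeps the stroma and discards blood and endothelium. There were 2 libraries labelled Per3 KO, by that label a knockout of the circadian gene Per3, and 2 libraries labelled WT, from wild-type littermates. All came from young C57BL/6 mice at zeitgeber time 2, in the early light phase, and no treatment is given for either group. The labels name neither the fat depot, the number of animals per library, the part of Per3 that was altered, nor the cells in which it was altered. Whether replicates are separate animals is not stated, so the spread behind each p-value is that of these samples and may be technical.

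Adipose stroma holds a hierarchy of precursors. Dpp4+ interstitial progenitors give rise to Icam1+ preadipocytes, which are committed to the fat cell lineage and differentiate readily. A separate F3+ population, the adipogenesis-regulatory cells or Aregs, has been described in mouse fat as restraining the differentiation of neighbouring precursors. A sorted Sca1+ pool mixes these populations, so a bulk library reads their sum, and fewer cells of a type cannot be told apart from less RNA per cell.

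Reads assigned to listed genes totalled 40003115 and 64964443 in Per3 KO 1 and Per3 KO 2, and 37101227 and 27950825 in WT 1 and WT 2. WT 2 stood apart from the rest. The chi-square per degree of freedom between its counts and those of another library was 577.2 to 1041, against 156.9 to 273.6 between the other libraries. Libraries labelled Per3 KO did not have less Per3 than both WT libraries, with 4.66 and 10.5 CPM (counts scaled to a common library total) against 3.16 and 7.31 CPM in WT. The log2 fold change of Per3 was 0.54 ± 0.83 (SE), and -0.17 without Per3 KO 2. The deposited count is given per gene, so it is no check on a partial deletion, and the libraries are called KO-labelled. Ly6a, which encodes Sca1, was abundant in every library. For it the log2 fold change was -1.52 with 4 libraries and 0.19 with WT 2 left out. The CD45 gene Ptprc had 4 and 50 reads in the KO-labelled libraries and 0 and 5 in WT. Pecam1, which encodes CD31, had 6.74 and 5.19 CPM against 2.06 and 8.86 CPM, groups that overlap.

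The surface marker Icam1 is the adhesion receptor to which leukocyte integrins bind, and antibodies to it are used to sort committed preadipocytes. The gene lies on mm9 chromosome 9 at 20820404 to 20833240. The 250 bases upstream of its RefSeq start are shown with those of F3 and Apoe, since F3 and Apoe varied most between libraries and both were high in the same ones. All windows are from GRCm38.p6, run 5′ to 3′, and carry matched motifs in capitals. Icam1 is chr9:21015690-21015939 on the plus strand, F3 is chr3:121723287-121723536 on the plus strand, and Apoe is chr7:19699189-19699438 on the minus strand.
Icam1: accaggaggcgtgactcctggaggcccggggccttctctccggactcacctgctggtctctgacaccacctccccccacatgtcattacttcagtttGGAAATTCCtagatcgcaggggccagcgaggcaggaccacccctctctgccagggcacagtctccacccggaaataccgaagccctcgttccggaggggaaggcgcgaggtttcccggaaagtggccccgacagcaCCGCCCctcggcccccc
F3: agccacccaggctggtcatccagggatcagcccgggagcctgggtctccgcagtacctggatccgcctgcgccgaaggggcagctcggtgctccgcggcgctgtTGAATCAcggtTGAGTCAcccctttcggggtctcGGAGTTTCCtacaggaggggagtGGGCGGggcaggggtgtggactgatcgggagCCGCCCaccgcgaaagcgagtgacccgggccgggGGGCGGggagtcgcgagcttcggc
Apoe: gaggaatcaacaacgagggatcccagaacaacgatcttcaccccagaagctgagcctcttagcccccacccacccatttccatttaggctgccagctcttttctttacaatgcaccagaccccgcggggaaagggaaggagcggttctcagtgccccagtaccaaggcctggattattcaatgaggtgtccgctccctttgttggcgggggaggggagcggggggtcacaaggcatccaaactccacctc
The motifs were searched on both strands as GGANNTTCC (a form of the NF-kB site), TGANTCA (AP-1), CACGTG (the E-box of clock factors), TTATGNAA (the D-box of PAR bZIP factors), GGGCGG (the GC box), TATAAA and CCAAT. The NF-kB form was found in the windows of Icam1 and F3, as GGAAATTCC at 153 and GGAGTTTCC at 112 bases before the start, and in 3.59% of 32851 windows. The F3 window also held 2 AP-1 matches, at 146 and 135 bases before the start, where 6.75% of windows hold any. GC boxes stood at 1 place in Icam1 and at 3 places in F3, and 32.7% of windows hold at least 1. No motif of this set overlapped another in these windows, and none of the 7 was found in the Apoe window, taken at the most upstream of 3 listed starts. An E-box, in 6.02% of all windows, and a D-box, in 3.07%, were in none of the 5 windows found, those of Icam1, Gdf10, F3, Clec11a and Apoe. These are matches of letters and not measured binding sites.

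Per transcript length, the markers covered a wide range of levels, and Icam1 was the highest in every library. Icam1 averaged 98.3 ± 2.76 RPKM in KO-labelled libraries and 97.8 ± 52.0 RPKM in WT (SD, n = 2 each). Here RPKM are reads scaled by transcript length and library total, as deposited. Apoe stood at 53.9 ± 36.3 RPKM and 34.4 ± 26.5 RPKM, F3 at 34.2 ± 26.5 and 45.1 ± 43.3 RPKM, and Gdf10 at 33.1 ± 0.735 and 31.8 ± 5.99 RPKM, each in KO-labelled libraries and in WT (SD, n = 2). The levels of these 3 genes overlapped between libraries, so they have no order beyond their spread. Clec11a averaged 7.48 ± 3.03 RPKM in KO-labelled libraries and 8.58 ± 1.27 RPKM in WT, and Aoc3 4.87 ± 1.30 and 5.73 ± 0.627 RPKM (SD, n = 2). Clec11a was above Aoc3 within each of the 4 libraries, though their ranges over libraries overlapped. In RPKM, Icam1 exceeded 96.8% to 98.2% of all genes of a library, and Aoc3 exceeded 75.3% to 85.9%.

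**Figure D1:**
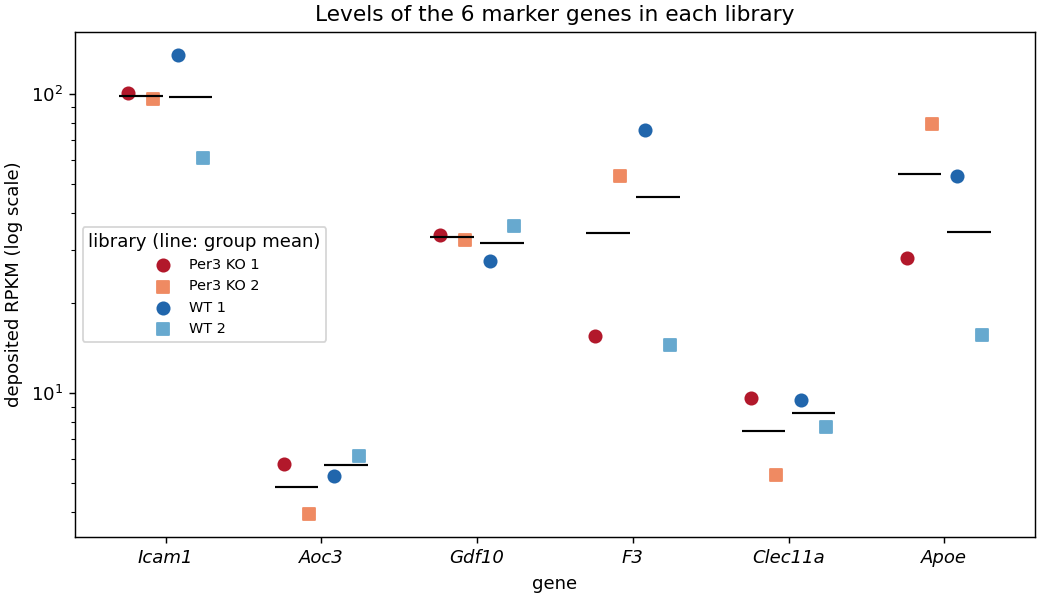
Deposited RPKM (log scale) of the 6 marker genes in each library, with lines at group means. Gdf10 lies between 27.59 and 36.06 RPKM in all 4 libraries, while F3 spans 14.43 to 75.7 and Apoe 15.64 to 79.56 RPKM.

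None of the 6 markers differed between KO-labelled and WT libraries by the test across all genes. Of 12494 genes that passed the filter on low counts, the quasi-likelihood test of edgeR (Benjamini-Hochberg adjustment) called 0, or 0.0%, at an adjusted p under 0.05. Unadjusted, 257 genes had p under 0.05, which is 2.06% of those tested, and no marker was among them. DESeq2 called 19 genes and limma on log2(RPKM + 0.5) called 1, again with no marker. All 6 markers passed the filter. For each of them the KO-labelled and WT libraries overlapped in CPM, while 26.0% of all genes tested had groups that did not overlap. Thus 0 markers lay above both WT libraries and 0 below, where 14.6% and 11.5% of all genes did. A negative log2 fold change was found for 5 of the 6, against 49.4% of all genes, and a positive one for 1, against 50.6%. The median was -0.36, against 0.01. By limma on log2(RPKM + 0.5), Icam1 (0.12) and Gdf10 (0.07) were positive, which leaves 3 of the 6 negative, and the median of all genes was 0.27. The 6 were read with earlier results of these data known, so these counts are a description.

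Icam1 had 100.3 and 96.39 RPKM in Per3 KO 1 and Per3 KO 2, against 134.6 and 61.05 RPKM in WT 1 and WT 2. The KO-labelled pair lay close together and between the WT values. In scaled counts it averaged 432 ± 28.7 CPM in KO-labelled libraries and 494 ± 158 CPM in WT (SD, n = 2). The log2 fold change was -0.20 ± 0.59 (SE, edgeR adjusted p = 1.00), with a 95% interval from -1.57 to 1.18, which spans ratios of 0.337 to 2.26. Without WT 1 it was 0.18, and without WT 2 it was -0.48. Of the markers, Icam1 varied least in CPM, by 1.58-fold from lowest to highest library. That range was wider than in only 19.3% of the 6804 genes with a mean of at least 10 CPM, whose median was 2.21-fold. In RPKM, Icam1 varied 2.2-fold, and Gdf10 varied least of the markers, by 1.31-fold.

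Aoc3 encodes vascular adhesion protein 1, a copper amine oxidase of the cell surface that oxidises primary amines and is abundant in fat cells. The gene lies on chromosome 11 at 101191920 to 101200742 (mm9). It had 1868 and 2125 reads, or 5.786 and 3.948 RPKM, in the KO-labelled libraries, and 1578 and 1558 reads, or 5.286 and 6.173 RPKM, in WT. Per3 KO 2 was lowest and WT 2 highest. Aoc3 averaged 37.1 ± 11.3 CPM in KO-labelled libraries and 54.1 ± 18.3 CPM in WT (SD, n = 2), a log2 fold change of -0.54 ± 0.52 (SE, edgeR adjusted p = 1.00). The 95% interval ran from -1.75 to 0.66. The value was -0.15 without WT 2 and -0.26 without Per3 KO 2, and -0.85 and -0.92 without WT 1 and Per3 KO 1.

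Of the secreted markers, Gdf10 encodes a TGF-beta family ligand close to Bmp3 and was among the steadiest. The gene is on chromosome 14 at 34736773 to 34748468 (mm9). It had 33.61 and 32.57 RPKM in the KO-labelled libraries, against 27.59 and 36.06 RPKM in WT. The KO-labelled pair again lay between the WT values. Scaled counts averaged 143 ± 8.66 CPM in KO-labelled libraries and 173 ± 71.2 CPM in WT (SD, n = 2). The log2 fold change was -0.27 ± 0.55 (SE, edgeR adjusted p = 1.00; 95% interval -1.56 to 1.02), and 0.23 without WT 2.

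Clec11a encodes osteolectin, a secreted C-type lectin-domain protein known as a bone growth factor made by stromal cells. The gene is on chromosome 7 at 51559140 to 51562329 (mm9). It had 9.629 and 5.337 RPKM in Per3 KO 1 and Per3 KO 2, against 9.48 and 7.688 RPKM in the WT libraries. Per3 KO 2 was the lowest of the 4 libraries. The CPM averaged 25.4 ± 11.2 in KO-labelled libraries and 34.9 ± 3.01 in WT (SD, n = 2), with a log2 fold change of -0.46 ± 0.53 (SE, edgeR adjusted p = 1.00; 95% interval -1.70 to 0.78). Without Per3 KO 2 it was -0.07, and without Per3 KO 1 it was -1.02.

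F3, the gene of tissue factor, the cell surface receptor that starts the extrinsic clotting cascade with factor VII, varied most. It lies on chromosome 3 at 121426455 to 121437970 (mm9). There were 2130 reads in Per3 KO 1 and 12170 in Per3 KO 2, or 15.45 and 52.95 RPKM. WT 1 had 9647 reads and WT 2 had 1555, or 75.7 and 14.43 RPKM. Each group thus held a low and a high library. Within the KO-labelled pair F3 differed 3.25-fold in CPM and within the WT pair 3.76-fold, while the ratio of the group means was 0.686. The means were 109 ± 81.7 CPM in KO-labelled libraries and 159 ± 131 CPM in WT (SD, n = 2). Its highest level was 4.89-fold its lowest, a wider range than in 89.7% of genes with a mean of at least 10 CPM. The log2 fold change of -0.54 ± 0.81 (SE, edgeR adjusted p = 1.00; 95% interval -2.45 to 1.36) turned with the library left out. It was 0.07 without Per3 KO 1, -1.63 without Per3 KO 2, 0.71 without WT 1 and -1.19 without WT 2.

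Apoe encodes apolipoprotein E, a lipid carrier taken up by cell surface receptors. The gene is on chromosome 7 at 20281593 to 20284515 (mm9). It had 2596 and 12190 reads, or 28.24 and 79.56 RPKM, in Per3 KO 1 and Per3 KO 2, and 4518 and 1124 reads, or 53.16 and 15.64 RPKM, in WT 1 and WT 2. As with F3, Per3 KO 2 and WT 1 were the high libraries and Per3 KO 1 and WT 2 the low ones. Apoe averaged 115 ± 74.0 CPM in KO-labelled libraries and 83.1 ± 49.2 CPM in WT (SD, n = 2). The log2 fold change was 0.47 ± 0.69 (SE, edgeR adjusted p = 1.00; 95% interval -1.14 to 2.07). It was 1.00 without Per3 KO 1, -0.41 without Per3 KO 2, 1.26 without WT 1 and -0.03 without WT 2.

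**Figure D2:**
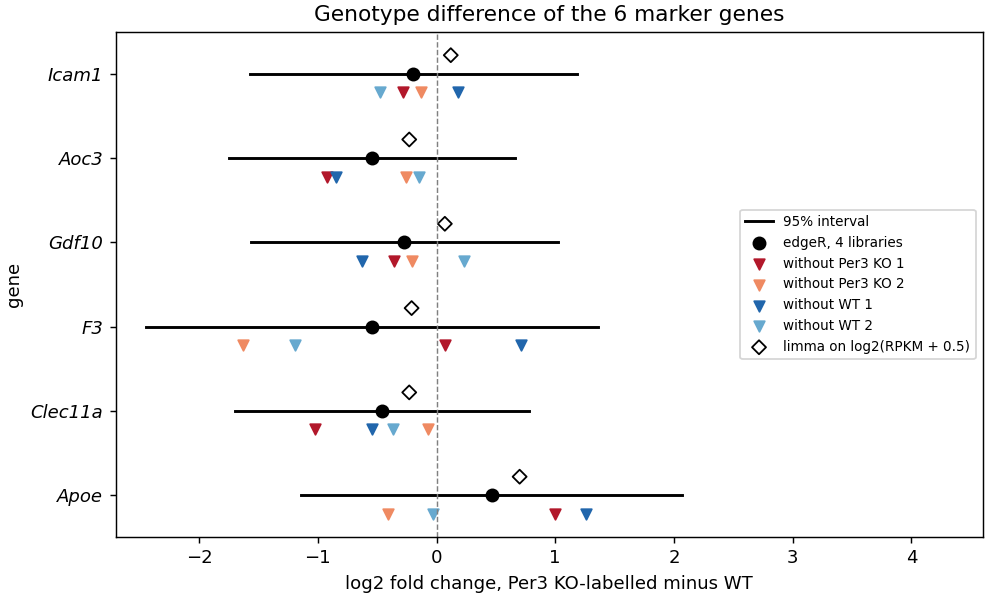
Log2 fold changes of the 6 markers, KO-labelled minus WT, from edgeR on 4 libraries (black points, with 95% intervals), with each library left out (triangles) and from limma on log2(RPKM + 0.5) (diamonds). Every interval includes 0, and the triangles of F3 spread from -1.63 to 0.71 and those of Apoe from -0.41 to 1.26.

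**Figure D3:**
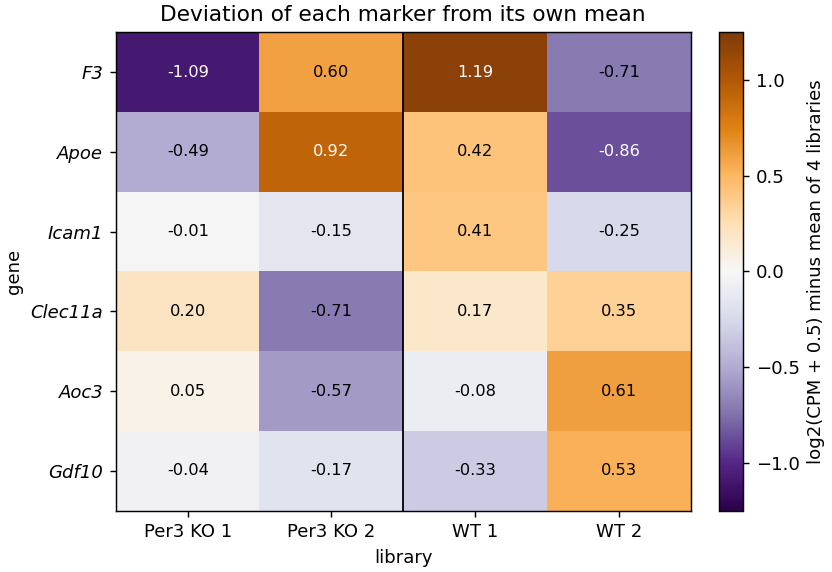
Deviation of log2(CPM + 0.5) of each marker from its own mean over the 4 libraries, with the KO-labelled libraries left of the line. F3 and Apoe are positive in Per3 KO 2 and WT 1 and negative in the others, and Aoc3, Gdf10 and Clec11a have their highest value in WT 2. In RPKM, Clec11a was highest in Per3 KO 1 (9.629, against 7.688 in WT 2).

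The profiles of the markers over the 4 libraries were compared by the root mean square distance between their log2(CPM + 0.5) values, each centred on its own mean. With 4 libraries this is a description and no correlation is given. Aoc3 was 0.21 from Clec11a and 0.25 from Gdf10. F3 was 0.52 from Apoe and 0.80 to 1.23 from the other markers. By this distance Apoe was the nearest marker to F3 and ranked 181 of 6803 genes around it, and F3 ranked 1325 around Apoe. The genes nearest to F3 over all those with a mean of at least 10 CPM were Cox6a1 (distance 0.0716) and BC013529 (0.151). Around Apoe they were Cenpc1 (0.0924) and Hbp1 (0.103), and around Icam1 they were Psmd1 (0.0165) and Slu7 (0.0167). Boc (0.0497) and Pbxip1 (0.0532) were nearest to Aoc3, Fbxw8 (0.0266) and Oaf (0.0302) to Gdf10, and Gnb2 (0.0266) and Psmb5 (0.0289) to Clec11a. Within a library, the ratio of F3 to Gdf10 in RPKM was 0.460 and 1.63 in Per3 KO 1 and Per3 KO 2, and 2.74 and 0.400 in WT 1 and WT 2. The balance of these F3+ stroma markers thus differed within each genotype label.

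Hepatocyte transcripts were high in the same libraries as Apoe. The summed level of 8 hepatocyte genes was 88.3 and 1520 CPM in Per3 KO 1 and Per3 KO 2, and 440 and 81.9 CPM in WT 1 and WT 2. All 8 had a positive log2 fold change (median 2.08), and all 8 overlapped between groups. Albumin, Alb, was at 0.0241 and 416 CPM in the KO-labelled libraries and at 85.8 and 7.87 CPM in WT. By this list the 2 highest libraries were those of Apoe and of F3. In the 2 low libraries Trf, the transferrin gene, was at 84.2 CPM in Per3 KO 1 and 31.0 CPM in WT 2. Trf made up most of the sum in Per3 KO 1 but not in WT 2. Between these 2 libraries Alb, Ttr and Apoa2 ran the other way. Ttr was at 0.169 CPM in Per3 KO 1 and 11.7 CPM in WT 2, and Apoa2 at 0.0483 and 25.8 CPM. Apoe is made in liver, and in Per3 KO 1, with 1 read of Alb, it stood at 62.7 CPM. The part of hepatocyte transcripts in the Apoe and F3 values was not tested.

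In the gene cluster around Apoe, Apoc1 and Apoc4 were highest in the libraries where Apoe was high. The nearest gene to Apoe, Tomm40, was highest in Per3 KO 1 and WT 1. Apoc1, which encodes a small apolipoprotein, begins 3586 bases from Apoe in mm9 and had 0.821 and 200 CPM in Per3 KO 1 and Per3 KO 2, against 47.7 and 11.4 CPM in WT 1 and WT 2. Apoc4, of the same family, had 0 and 39.7 CPM against 9.78 and 0.129 CPM. Tomm40, a mitochondrial import channel gene 2147 bases from Apoe, had 5.7 and 3.81 CPM against 5.53 and 0.989 CPM. Macrophages also express Apoe. Of the 8 macrophage genes listed, Gpnmb had 45.4 and 98.7 CPM in Per3 KO 1 and Per3 KO 2 and 90.9 and 62.3 CPM in WT 1 and WT 2, and was thus highest in the libraries where Apoe was high. Lgals3 had 6.786 and 4.618 RPKM in the KO-labelled libraries against 11.83 and 4.696 RPKM in WT, and Folr2 had 53 and 0 reads against 0 and 73. Trem2 had 0 reads in all 4 libraries, Mrc1 had 4 reads or fewer, and Spp1 and Cd163 had 19 reads or fewer. The list summed to 419 and 438 CPM in the KO-labelled libraries and 431 and 473 CPM in WT, most of it from Cd9, which stromal cells also express. The part of macrophage transcripts in the Apoe values was not tested.

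**Figure D4:**
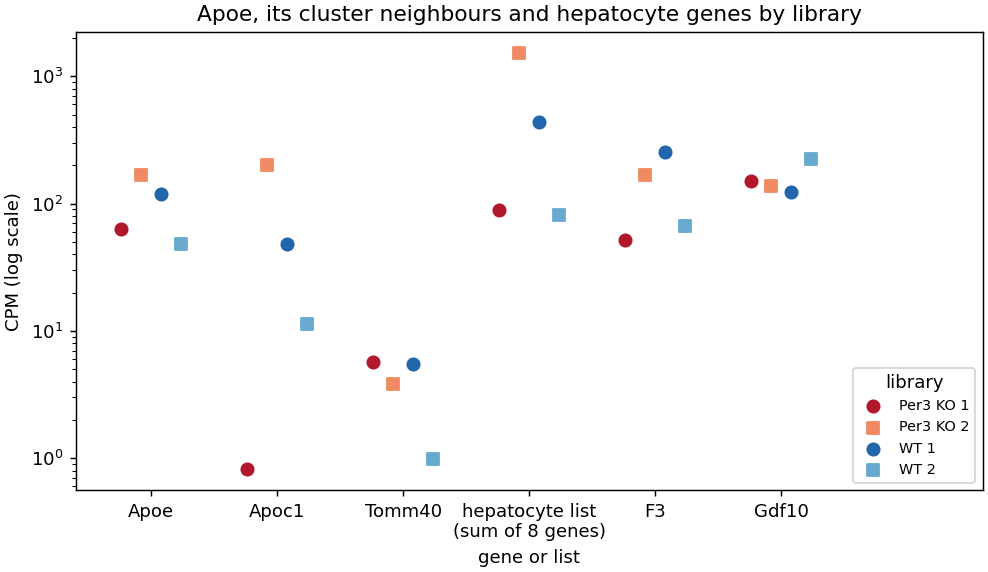
CPM (log scale) in each library of Apoe, of its cluster neighbours Apoc1 and Tomm40, of a list of 8 hepatocyte genes summed, and of F3 and Gdf10. Apoe, Apoc1, the hepatocyte list and F3 are highest in Per3 KO 2 and WT 1. Tomm40 is highest in Per3 KO 1 and WT 1, and Gdf10 in WT 2.

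Of the receptors and efflux genes that handle Apoe, 14 listed genes including the cluster were tested and none passed. The log2 fold change was positive for 9 and negative for 5 (median 0.24). Abcg1 and Nr1h3, a sterol efflux pump and the nuclear receptor LXR alpha that activates it, had both KO-labelled values over both WT values. The list thus held 2 genes above both WT libraries and 1 below, where 14.6% and 11.5% of all genes were. Nr1h3 had 26.6 and 34.9 CPM in the KO-labelled libraries against 25.4 and 11.0 CPM in WT (log2 fold change 0.75 ± 0.59, SE), and Abcg1 had 3.38 and 2.96 against 1.85 and 0.258 CPM (1.58 ± 1.47). With a library left out Nr1h3 ranged from 0.28 without WT 2 to 1.49 without WT 1, and Abcg1 from 0.78 to 3.61 for the same libraries. The receptor gene Lrp1 had 413 and 552 CPM in the KO-labelled libraries against 477 and 462 CPM in WT.

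Some partners of tissue factor were near the limit of counting. The gene of its ligand, F7, had 0 and 5 reads in the KO-labelled libraries and 1 and 0.9846 in WT, and that of the receptor PAR2, F2rl1, had 0 and 1.979 reads against 0 and 0. Of 11 listed genes 8 were tested, 3 with a positive and 5 with a negative log2 fold change (median -0.11), and none passed. Among the 8, 1 lay above both WT libraries and 0 below, where 14.6% and 11.5% of all genes did. Tfpi2, a Kunitz-type inhibitor, had 159 and 144 CPM in the KO-labelled libraries, above 125 and 54.3 CPM in WT (log2 fold change 0.76 ± 0.58, SE), and its value was 0.28 without WT 2 and 1.48 without WT 1. The inhibitor Tfpi had 53.1 and 23.1 CPM against 30.4 and 20.5 CPM (0.58 ± 0.58), with -0.15 without Per3 KO 1 and 1.06 without Per3 KO 2. F10, the protease activated by tissue factor, had 28.98 and 412 reads in Per3 KO 1 and Per3 KO 2 and 33 and 0.9515 in WT (2.79 ± 1.90), and with a library left out its value ranged from 0.61 to 6.13. The anticoagulant receptor genes Procr and Thbd stood at 429 and 385 CPM against 314 and 535 CPM, and at 258 and 327 CPM against 385 and 275 CPM.

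Among the relatives and partners of Icam1, the erythroid adhesion gene Icam4, 577 bases from Icam1 in mm9, had 1 and 0 reads in the KO-labelled libraries and 58 and 118 in WT. Itgal, the alpha chain of the leukocyte integrin LFA-1 that binds Icam1, had 6 and 0 reads against 118 and 53. Both, of 4 listed genes tested, lay below both WT libraries, as did 11.5% of all genes. Their reads reached the filter's minimum count of 10 only in WT. The filter thus favoured this placing, and it is no result about the partners of Icam1. Neither passed in edgeR, while Icam4 passed with DESeq2 (adjusted p = 0.0332) and in no other alternative that tested it. In the leukocyte list 8 of 10 genes tested had a negative log2 fold change (median -1.55). Cd52 and S100a8 among them had 0 reads in both KO-labelled libraries and passed the filter through WT alone, while Ptprc was not tested. That count and median are thus partly set by the filter. The list summed to 44.4 and 30.5 CPM in KO-labelled libraries and 21.5 and 78.8 CPM in WT. Its defining gene Ptprc was at 50 reads or fewer in every library, and its part in the Icam4 and Itgal values was not tested. Vcam1, an adhesion receptor of stroma and endothelium, had 180 and 148 CPM against 265 and 61.4 CPM.

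The copper amine oxidases beside Aoc3 were mostly matrix cross-linking enzymes. Loxl1 stood at 376 and 288 CPM in KO-labelled libraries and 370 and 731 CPM in WT (log2 fold change -0.73 ± 0.62, SE), and Lox at 91.4 and 135 CPM against 122 and 48.5 CPM (0.41 ± 0.61). Without WT 2 these were -0.15 for Loxl1 and -0.10 for Lox, and without WT 1 they were -1.14 and 1.23. Aoc2, the closest paralog, 912 bases away in mm9, had 10.7 and 4.13 CPM against 4.98 and 10.7 CPM (-0.08 ± 0.81), groups that overlap. How reads shared by neighbouring or similar genes were assigned is unknown here, and the split between Aoc2 and Aoc3 is uncertain. None of the 4 genes tested in this list passed, 1 with a positive and 3 with a negative log2 fold change (median -0.06).

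Genes of the Gdf10 branch of TGF-beta signalling, that is relatives, receptors and SMADs, had a positive log2 fold change in 3 and a negative one in 7 of 10 tested (median -0.34), and none passed. The activin type 2 receptor gene Acvr2a had 24.0 and 28.5 CPM in the KO-labelled libraries, above 12.8 and 10.5 CPM in WT. Its log2 fold change was 1.17 ± 0.53 (SE, edgeR adjusted p = 1.00) and stayed between 1.04 and 1.32 with any library left out. Bmp3, the closest relative of Gdf10, had 1.04 and 2.79 CPM, below 4.44 and 7.31 CPM in WT (-1.61 ± 1.03, and -2.50 without Per3 KO 2). The signal transducer Smad4 had 29.3 and 26.2 CPM, below 40.5 and 38.8 CPM (-0.51 ± 0.47). For Smad4 the groups overlapped in RPKM, at 4.946 and 4.662 against 6.834 and 4.705. Of the 10 genes 2 lay above both WT libraries and 3 below, where 14.6% and 11.5% of all genes did.

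Of the lectin relatives and integrin partners of Clec11a, Itga11, the integrin chain through which osteolectin acts in mouse bone marrow stroma, had 46.1 and 93.2 CPM in KO-labelled libraries and 72.9 and 80.5 CPM in WT. Clec3b, which encodes the secreted lectin tetranectin, had 84.6 and 167 CPM against 456 and 91.0 CPM (log2 fold change -1.12 ± 0.82, SE), and 0.47 without WT 1. Of 4 genes tested in this list, 1 log2 fold change was positive and 3 were negative (median -0.63), and none passed.

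The other genes of the same populations were read beside the markers. Of 14 other committed preadipocyte genes 13 were found and tested, none passed, and the log2 fold change was positive for 6 and negative for 7 (median -0.07). Here 2 genes, the basement membrane collagens Col4a1 and Col15a1, had both KO-labelled values under both WT values and 0 genes had them over, where 11.5% and 14.6% of all genes did. Col4a1 had 662 and 714 CPM against 784 and 715 CPM (-0.12 ± 0.59, SE), and Col15a1 had 115 and 110 CPM against 119 and 123 CPM (-0.11 ± 0.49). In RPKM the groups overlapped for both. Fabp4, a fatty acid carrier of fat cells, had 164 and 177 CPM in KO-labelled libraries and 169 and 773 CPM in WT (-1.47 ± 0.78, SE), and its relative Fabp5 had 47.5 and 20.2 CPM against 26.2 and 91.6 CPM (-0.80 ± 0.72). Pparg, the master regulator of fat cell differentiation, had 28.3 and 21.5 CPM against 27.1 and 2.54 CPM (0.75 ± 0.96). For all 3 the WT 2 library held the extreme value, and without it the log2 fold changes were 0.02 for Fabp4, 0.37 for Fabp5 and -0.12 for Pparg. Dlk1, a preadipocyte surface protein gene, was near the limit of counting, with 22 and 28 reads against 25 and 6.

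Among 13 other genes of F3+ regulatory stroma, all tested, 7 log2 fold changes were positive and 6 negative (median 0.02), and none passed. The KO-labelled pair exceeded the WT pair without overlap for Abcg1 and Cpe, and was below it for Igfbp3 and Gas6. These are 2 and 2 of the 13 genes, where 14.6% and 11.5% of all genes lay above and below. Igfbp3, an IGF-binding protein, had 47.9 and 51.4 CPM in the KO-labelled libraries and 77.3 and 98.8 CPM in WT (-0.83 ± 0.47, SE), and stayed between -0.99 and -0.63 with any library left out. Mgp, the matrix Gla protein, had 129 and 92.5 CPM against 103 and 471 CPM (-1.38 ± 0.77), and the methyltransferase gene Inmt had 37.9 and 114 CPM against 87.1 and 412 CPM (-1.72 ± 0.88). Without WT 2 these were 0.11 for Mgp and -0.19 for Inmt. Fmo2, a flavin monooxygenase used as an Areg marker, had its high values in the same libraries as F3. It had 11.1 and 33.5 CPM in Per3 KO 1 and Per3 KO 2 against 19.2 and 6.84 CPM in WT 1 and WT 2. Not all genes of this list did so, and in CPM Mgp, Inmt and Igfbp3 were highest in WT 2, where F3 was low. In RPKM, Igfbp3 was highest in WT 1 (17.87, against 16.4 in WT 2). Nor was the pattern of F3 and Fmo2 particular to this list. Of the Dpp4+ progenitor genes, Dpp4 and Pi16 were also highest in Per3 KO 2 and WT 1, while Wnt2 and Ly6c1 were not.

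Markers of the Dpp4+ progenitors were read in every library. Dpp4 itself had 353 and 519 CPM in KO-labelled libraries and 626 and 295 CPM in WT, and Pi16 had 1200 and 1370 CPM against 1510 and 798 CPM. Of 13 genes, all tested, 7 log2 fold changes were positive and 6 negative (median 0.07), and none passed. The signalling ligand Bmp7 had 21.1 and 24.2 CPM, below 28.1 and 47.2 CPM in WT (-0.73 ± 0.51, SE), and Efhd1, a mitochondrial calcium-binding protein gene, had 38.6 and 28.6 CPM, below 38.9 and 114 CPM (-1.18 ± 0.62). Without WT 2 these were -0.30 for Bmp7 and -0.21 for Efhd1, and without WT 1 they were -1.05 and -1.75. Ly6c1, of the Ly6 family that includes Sca1, had 1580 and 940 CPM against 1200 and 6230 CPM (-1.56 ± 0.94), with 0.07 without WT 2. Wnt2 lay above both WT libraries, at 125 and 161 CPM against 110 and 90.2 CPM. Thus 1 of the 13 genes lay above both WT libraries and 2 below, where 14.6% and 11.5% of all genes did.

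**Figure D5:**
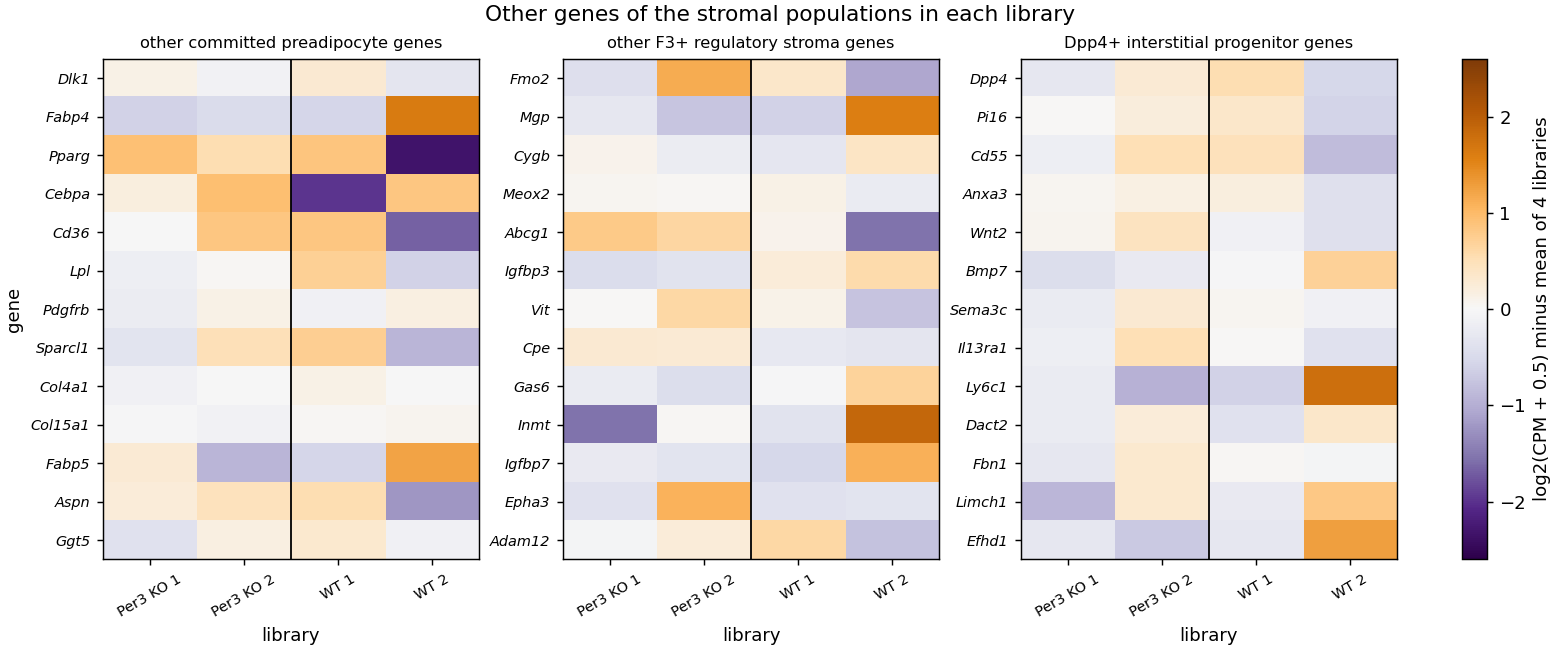
Deviation of log2(CPM + 0.5) from each gene's own mean over the 4 libraries, for other committed preadipocyte genes, other F3+ regulatory stroma genes and Dpp4+ progenitor genes, with KO-labelled libraries left of the line. In each panel the gene farthest from its mean is so in WT 2, though not every gene is widest there. Examples are Fabp4 (773 CPM there and 164 to 177 CPM elsewhere) and Pparg (2.54 CPM there and 21.5 to 28.3 CPM elsewhere).

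Identity genes of the stroma were abundant, with Col1a1 at 27100 and 24600 CPM in KO-labelled libraries and 22000 and 44900 CPM in WT. Of 9 tested, 3 log2 fold changes were positive and 6 negative (median -0.16). No gene of the lists of other cell types passed in edgeR. The median was 0.13 for endothelial genes (5 tested, 3 positive), 0.24 for mural genes (10 tested, 6 positive), 1.19 for epithelial genes (6 tested, 4 positive), -0.02 for Schwann cell genes (5 tested, 2 positive) and 0.38 for mature adipocyte genes (4 tested, 2 positive). It was -0.39 for the macrophage genes (4 tested, 0 positive) and -0.69 for skeletal muscle genes (7 tested, 0 positive), and the only mesothelial gene tested had -0.76. Muscle genes summed to 27.0 and 26.0 CPM in KO-labelled libraries and 61.6 and 96.7 CPM in WT. Mesothelial genes summed to 7.51 CPM or less in every library, and epithelial genes to 7.38 CPM or less. Of the epithelial genes, Cldn4 and Cdh1 had 0 reads in both WT libraries and passed the filter through the KO-labelled pair alone. The epithelial median thus rests on few reads and is partly set by the filter.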

How the data were processed

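RNA was sequenced from 4 libraries of sorted adipocyte precursors. Per the labels' protocols, RNA was extracted directly after the sort and cDNA was primed with oligo-dT. The submitters' processing notes name STAR 2.4.0, Cufflinks, Cuffdiff 2.2.1 and mm9, without roles. Settings, annotation, strand and the handling of shared reads: not given in the sources used here. Each deposited table gives, for every gene, an estimated count of reads, 8.85% to 12.0% of which were not whole (tolerance 1e-09), and an RPKM value made by the authors, per the file headers. The total behind RPKM was 0.846 in WT 2 relative to WT 1, while its listed reads were 0.753 of those in WT 1, so RPKM and scaled counts weight that library differently. The authors also deposited a score per gene, headed as a Z score, and a ratio of RPKM to its root mean square, per the file headers. Neither was used.

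Counts were rounded, genes filtered by filterByExpr (minimum count 10, minimum total 15) and libraries scaled by TMM factors of 1.04, 1.12, 1.03 and 0.832 for Per3 KO 1, Per3 KO 2, WT 1 and WT 2. Genotype was tested with edgeR 4.0.16 (glmQLFit, glmQLFTest, two-sided) in R 4.3.3 on the whole table, at a threshold of 0.05 after adjustment. SE are the fold change over the root of the F statistic, and 95% intervals use its degrees of freedom. Alternatives used DESeq2 1.42.0, limma 3.58.1, other scalings and filters, a replicate block and each library left out. A fit with 3 libraries assumes that the lone library varies like the other group. The pipeline was also run on simulated counts, and the outcome is not reported here. The fitted spread within groups, as the common biological coefficient of variation of edgeR, was 0.742. The markers, lists and motifs were chosen with earlier results of these data known. The rule for named genes took the 6 markers, Per3, the gate genes, genes next to a marker, the 2 nearest profiles and, of each list, up to 3 genes by smallest unadjusted p. Its picks from lists of other cell types are given only in their lists' counts, except Ttr, Gpnmb, Lgals3, Folr2, Cd52, S100a8, Cldn4 and Cdh1. Thy1, Col3a1, Icam2, Clec14a and Itga10 are likewise given only in their lists' counts. Named outside the rule, after their values were seen, were Alb, Apoa2, Trf, Trem2, Mrc1, Spp1, Cd163, Cd9, Apoc4, Dlk1, Fmo2, Dpp4, Pi16, Wnt2, Vcam1, Col1a1, Col4a1, Col15a1, Cpe, Gas6, Itga11, Lrp1, Procr, Thbd, F7 and F2rl1. Promoter windows are from RefSeq GRCm38.p6, another build than that of the tables.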

Additional observations from a re-analysis of the deposited data

How the results depend on the processing

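No marker passed under any alternative, where the lowest adjusted p was 0.365 (edgeR, Apoe without WT 1). The count of genes called, 0 with 4 libraries, was 19 with DESeq2, 4 with no filter, 1 where the mean RPKM had to reach 5, 1 with limma at each pseudocount of 0.1, 0.5 and 1, and 1 to 4 with a library left out. On RPKM, limma gave Icam1 log2 fold changes of 0.12, 0.12 and 0.11 at pseudocounts of 0.5, 0.1 and 1 and 0.12 with no filter, and gave Gdf10 0.07 in each. There the median of all genes was 0.21 to 0.31. At a pseudocount of 0.5, relative to that median, Icam1 was at -0.15 and Gdf10 at -0.20. The cause of the other changes was not tested. With a library left out, log2 fold changes ranged from -0.48 to 0.18 for Icam1, -0.63 to 0.23 for Gdf10, -1.63 to 0.71 for F3 and -0.41 to 1.26 for Apoe. They ranged from -0.17 to 1.28 for Per3, -2.27 to 0.19 for Ly6a, -0.57 to 1.53 for Pecam1, -2.18 to 0.02 for Fabp4, -1.58 to 0.37 for Fabp5 and -0.12 to 3.30 for Pparg. The same ranges were -2.09 to 0.11 for Mgp, -2.30 to 0.07 for Ly6c1, -0.10 to 1.23 for Lox, -0.15 to 1.06 for Tfpi and -1.85 to 0.47 for Clec3b. Aoc3 and Clec11a kept a negative sign throughout. With 2 libraries a group the 95% intervals are wide, and ratios inside them are not excluded by these data.

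A replicate block called 1 gene. The labels tie the numbers to no shared litter, batch or day, and same-numbered libraries are not read as pairs. Deviations of libraries with the same number correlated at -0.276 over 6804 genes, and with crossed numbers at 0.276, a mirror value that 2 libraries a group impose. A block with crossed numbers, chosen after seeing the data, called 2.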
